A study of Mus musculus with 5 samples.

Results

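The T-box genes encode transcription factors that share a DNA-binding domain, the T-box, and pattern the early embryo, heart and limbs. H3K27me3, the trimethyl mark that Polycomb Repressive Complex 2 (PRC2) places on lysine 27 of histone H3, is a hallmark of developmental regulators in cells that do not use them. PRC2 is recruited at CpG islands, short stretches rich in the dinucleotide CG, and the mark spreads outward from there. H3K27me3 was examined here at 10 T-box genes: T (Brachyury), Eomes, Tbx1, Tbx2, Tbx3, Tbx4, Tbx5, Tbx15, Tbx18 and Tbx20. They were taken by name from a total of 22350 protein-coding genes of the mm9 GENCODE vM1 annotation on chromosomes 1 to 19 and X, and their start sites and gene bodies were compared with the peak lists.

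The cells were mouse embryonic fibroblasts (MEFs) derived from an embryo whose Eed gene, encoding a PRC2 subunit, is flanked by loxP sites, an allele that all groups analysed here carry undeleted. Lentivirus with an EF1a promoter delivered H3.3K27R, H3.3K27M or human EZHIP (hEZHIP). K27R puts arginine in place of the lysine and is the reference here, K27M is the methionine mutant of diffuse midline glioma, and EZHIP is the PRC2 inhibitor of posterior fossa ependymoma. Each group had 1 H3K27me3 ChIP-Seq library of crosslinked, MNase-digested chromatin. The untransduced parental cells and the line with EED deleted, which is 1 clone, were not analysed here.

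The deposited files gave peak positions without heights or read counts, so depth is unknown, and with 1 library a group there is no replicate spread to compare with. All values below describe 3 libraries, and a member without a peak is a gene at which no region was called, not one shown to lack the mark. The K27R, K27M and EZHIP lists held 12845, 3736 and 4992 peaks. Neighbouring K27M peaks were never closer than 5200 bp and EZHIP peaks never closer than 1200 bp, so that an EZHIP signal could be split where a K27M signal was joined. The smallest gap between K27R peaks was 0 bp, so the K27R regions used as reference below could be split at still smaller gaps. As a rough check of the cell type, the start sites of 1 of 10 fibroblast marker genes (Pdgfra) lay in K27R peaks. The counts were 3 of 4 neuronal, 2 of 5 epithelial, 1 of 4 blood and 3 of 5 endothelial markers. Over all protein-coding genes the share was 30.1%, which the blood count did not exceed. With 4 to 10 genes a set, these counts cannot settle the cell type.

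Promoter sequence is shown first, because the members differed both in CG content and in H3K27me3, and these ran in parallel only in part. Each line gives the 300 bases before the start site, read 5′ to 3′ on the strand of the gene from the mm9 sequence, with every CG dinucleotide in capitals. T (chr17:8626988-8627287, plus strand) and Tbx20 (chr9:24578747-24579046, minus strand) lay in peaks of all 3 lists. Eomes (chr9:118387030-118387329, plus strand) lay in K27R and K27M peaks. Tbx3 (chr5:120120378-120120677, plus strand) and Tbx18 (chr9:87626096-87626395, minus strand) lay in none.
T: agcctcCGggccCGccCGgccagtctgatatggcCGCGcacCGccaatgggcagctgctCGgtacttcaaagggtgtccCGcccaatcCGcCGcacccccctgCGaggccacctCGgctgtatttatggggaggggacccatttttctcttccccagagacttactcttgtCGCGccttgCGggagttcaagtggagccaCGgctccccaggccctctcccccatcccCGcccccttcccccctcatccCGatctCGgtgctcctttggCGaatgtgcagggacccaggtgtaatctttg
Tbx20: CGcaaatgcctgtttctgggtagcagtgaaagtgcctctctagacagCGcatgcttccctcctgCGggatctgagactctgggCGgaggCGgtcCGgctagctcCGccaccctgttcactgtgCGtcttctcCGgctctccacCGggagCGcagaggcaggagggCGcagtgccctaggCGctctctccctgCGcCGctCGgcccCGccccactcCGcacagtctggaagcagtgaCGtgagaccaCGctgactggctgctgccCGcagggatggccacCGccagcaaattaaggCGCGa
Eomes: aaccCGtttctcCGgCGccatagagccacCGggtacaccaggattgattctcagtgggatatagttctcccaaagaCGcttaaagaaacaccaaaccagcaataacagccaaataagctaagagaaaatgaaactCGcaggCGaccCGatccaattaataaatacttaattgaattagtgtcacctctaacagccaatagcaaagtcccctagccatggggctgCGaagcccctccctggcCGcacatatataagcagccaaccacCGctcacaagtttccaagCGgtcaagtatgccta
Tbx3: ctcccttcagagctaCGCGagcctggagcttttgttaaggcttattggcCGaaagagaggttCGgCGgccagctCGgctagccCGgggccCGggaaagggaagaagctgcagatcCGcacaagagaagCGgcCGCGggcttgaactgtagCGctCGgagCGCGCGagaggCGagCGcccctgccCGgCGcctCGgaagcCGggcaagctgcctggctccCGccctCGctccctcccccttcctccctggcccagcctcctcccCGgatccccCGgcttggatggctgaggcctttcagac
Tbx18: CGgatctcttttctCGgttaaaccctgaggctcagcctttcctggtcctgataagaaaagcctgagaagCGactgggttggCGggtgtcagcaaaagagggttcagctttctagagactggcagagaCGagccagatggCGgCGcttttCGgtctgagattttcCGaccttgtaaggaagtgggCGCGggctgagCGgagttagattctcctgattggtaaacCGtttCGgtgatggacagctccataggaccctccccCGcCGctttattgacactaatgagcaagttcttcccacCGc

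These windows held 20 CG dinucleotides at T, 24 at Tbx20, 12 at Eomes, 27 at Tbx3 and 17 at Tbx18, where the median over all protein-coding genes was 9. None of the 5 windows overlapped an annotated exon. Among the remaining members the count was 35 at Tbx1, 29 at Tbx2, 15 at Tbx4, 10 at Tbx15 and 0 at Tbx5. By the GENCODE start sites, the 3 members richest in CG were thus Tbx1 and Tbx2, which lay in peaks of every list, and Tbx3, which lay in none. Tbx5 and Tbx15, the poorest in CG, also lay in none. Over all promoters of this length, 5.92% had at least as many CG dinucleotides as Tbx1, 13.6% as many as Tbx3 and 44.5% as many as Eomes. A CpG island lay within 500 bp of the start site of 8 of the 10 members, all but Tbx5 and Tbx15, against 52.4% of protein-coding genes. Tbx15 missed this limit narrowly, with an island of 693 bp that began 0.51 kb inside the gene.

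The members fell into 2 groups in the K27R list. The start sites of 6 of 10 lay in a K27R peak (T, Eomes, Tbx1, Tbx2, Tbx4 and Tbx20), where the background over protein-coding genes was 30.1%. All 6 start sites also lay in a K27M peak (6 of 10, background 9.02%). In EZHIP 5 of them did (5 of 10, background 7.73%), the exception being Eomes. The start sites of Tbx3, Tbx5, Tbx15 and Tbx18 lay outside the peaks of every list. The same members were counted when the start of any annotated transcript was used, because every annotated start of a member lay on the same side of the peaks as its gene start.

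**Figure D1:**
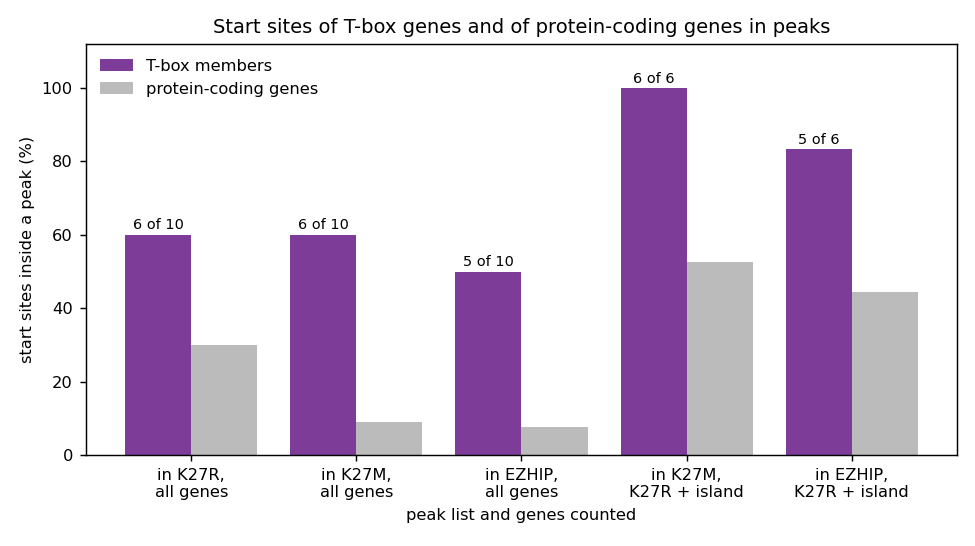
Percentage of start sites inside a peak (vertical axis, from 0) for the T-box members (purple, with counts) and for protein-coding genes (grey), by peak list; the last 2 pairs count only genes whose start site lies in a K27R peak with a CpG island within 500 bp. Members stand above the background in each pair, with 6 of 6 against 52.7% in K27M and 5 of 6 against 44.6% in EZHIP in those last pairs.

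Retention was then read among genes that carried the mark in the reference list. Of 6735 protein-coding genes with a start site in a K27R peak, 29.9% had it in a K27M peak, 25.6% in an EZHIP peak, 21.9% in both and 66.5% in neither. The 6 T-box members gave 6, 5, 5 and 0. Because all 6 had an island at the start site, the nearer background is the 2897 genes with both a K27R peak and an island there, of which 52.7% were in a K27M peak and 44.6% in an EZHIP peak. An island alone did not go with a K27R peak, which lay over 24.7% of island start sites in general and over 6 of the 8 in the T-box members, not over Tbx3 and Tbx18.

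**Figure D2:**
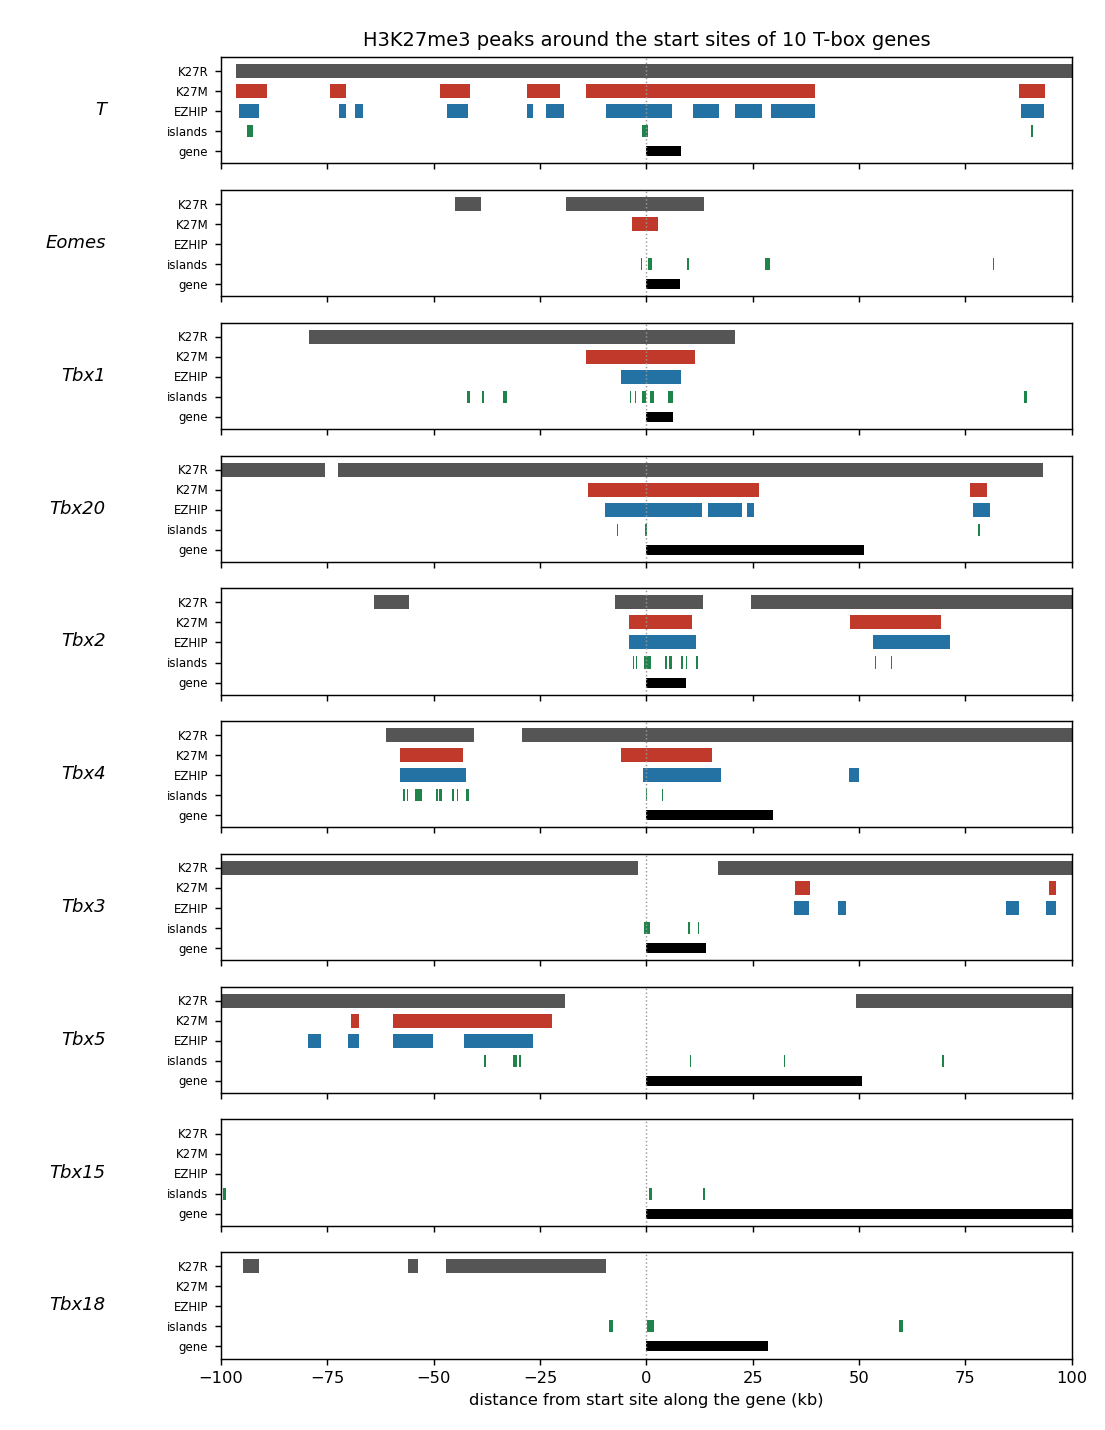
Peaks of the K27R (grey), K27M (red) and EZHIP (blue) lists, CpG islands (green) and the gene (black) around each T-box start site, with distance from the start site along the gene in kb on the horizontal axis, drawn to scale and cut at 100 kb. The upper 6 genes have a K27R region over the start site with narrower residual peaks inside it, while Tbx3 and Tbx5 sit in gaps between K27R regions and Tbx15 has no peak in the window.

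T, or Brachyury, drives mesoderm formation and the notochord, and it had the widest cover of the members. The gene (ENSMUSG00000062327.3, chr17:8627288-8635361, plus strand) lay in a K27R region of 333.0 kb (chr17:8530801-8863800). Within this region the K27M list kept 6 peaks over 86.0 kb (25.8% of the region) and the EZHIP list kept 11 peaks over 62.4 kb (18.7%), with 59.8 kb in both. The K27M peak over the start site spanned 53.8 kb (chr17:8613201-8667000), and held the whole gene with all 8 of its exons. The EZHIP peak over the start site spanned 15.6 kb (chr17:8617801-8633400), and held 6.11 of the 8.07 kb of the gene and 7 exons. The EZHIP list thus had, over the span of that single K27M peak, 4 separate peaks, of 15.6, 6.2, 6.4 and 10.4 kb, and the last ended at the same position as the K27M peak, 39.71 kb past the start site.

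Within 50 kb of the start site, on each side, T had K27R, K27M and EZHIP cover of 100, 68.6 and 49.0 kb. Among the 6735 genes with a start site in K27R, 143 (2.12%) had at least as much K27M cover in this window, and 223 (3.31%) at least as much EZHIP cover. The region also held the starts of Prr18 and Pde10a, a phosphodiesterase gene, and each kept a K27M and an EZHIP peak of its own. Joining peaks up to 10000 bp apart brought the lists together at T, to 74.8 kb in K27M and 72.8 kb in EZHIP.

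Eomes, a regulator of trophoblast, endoderm and early mesoderm, was the only member with its start site in a K27M peak but not in an EZHIP peak. This is not particular to Eomes. Of 2011 protein-coding genes with a start site in both K27R and K27M peaks, only 1476 also had it in an EZHIP peak. The gene (ENSMUSG00000032446.8, chr9:118387330-118395250, plus strand) lay whole in a K27R region of 32.4 kb (chr9:118368401-118400800). In K27M a 6.0 kb peak held the start site (chr9:118384001-118390000) and covered 18.5% of the region. No EZHIP peak lay in the region, and the nearest one was 126.87 kb from the start site. The K27M peak was the narrowest of the 6 over member start sites and covered 2.67 kb of the gene, with 2 of its 6 exons and 2 of the 3 islands of the region. By cover within 50 kb, 37.1% of genes with a start site in K27R had as much K27M cover or more, so that Eomes stood within the bulk of such genes in K27M.

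Tbx1, which acts in the pharyngeal arches and the outflow tract of the heart, kept a single peak in each inhibitor list. The gene (ENSMUSG00000009097.8, chr16:18581806-18588113, minus strand) lay in a K27R region of 100 kb (chr16:18567401-18667400). The K27M peak spanned 25.6 kb (chr16:18576601-18602200) and the EZHIP peak 14.2 kb (chr16:18580001-18594200), which lay wholly inside the K27M peak. Both held the entire gene with its 8 exons. Of the 8 islands in the region, the same number, 5, lay under the K27M and under the EZHIP peak, all between -3.94 and 6.36 kb from the Tbx1 start site. The other 3 islands lay between -42.11 and -32.72 kb, near the start sites of Gp1bb and Sept5, which were in the K27R region and in neither residual list.

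Tbx20, a heart regulator, showed the same nesting in a wider region. The gene (ENSMUSG00000031965.7, chr9:24527648-24578746, minus strand) lay whole in a K27R region of 165.6 kb (chr9:24485601-24651200). The K27M peak over the start site spanned 40.2 kb (chr9:24552201-24592400), and the EZHIP peak 22.8 kb (chr9:24565801-24588600). Farther into the gene the EZHIP list had 2 more peaks, of 8.0 and 1.6 kb, inside the span of that K27M peak. Of the 51.1 kb of the gene, 26.55 kb were under K27M and 22.55 kb under EZHIP, each touching 7 of 10 exons, and the 3′ part of the gene was bare in both. A second residual peak, of 4.2 kb in K27M and 4.0 kb in EZHIP, lay over the start site of Dpy19l2 beyond the 3′ end.

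Tbx2 and Tbx4 lie next to each other on chromosome 11, with start sites 53.9 kb apart, so that their 50 kb windows overlap and share peaks. Tbx2 is a repressor of the developing heart and limb, and Tbx4 a regulator of hindlimb and lung mesenchyme. Their K27R regions were separate, with 11.2 kb between them, in which the start of Gm11444 lay outside every list. Tbx2 (ENSMUSG00000000093.6, chr11:85646053-85655450, plus strand) had the narrowest K27R region of the members, 20.8 kb (chr11:85638601-85659400), and the one kept most fully. The K27M peak spanned 14.8 kb (71.2% of the region, chr11:85642001-85656800) and the EZHIP peak 15.6 kb (75%, chr11:85642001-85657600).

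Both Tbx2 peaks began in the same 200 bp bin, at -4.05 kb from the start site, and covered all 7 exons. Tbx2 was the only member at which the EZHIP peak over the start site was the wider. The Tbx2 region was also the densest in islands, with 8 in 20.8 kb, of which 7 touched the K27M peak and 8 the EZHIP peak. The island that only the EZHIP peak touched, of 513 bp, lay at its edge with less than 50% of its length inside.

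Tbx4 (ENSMUSG00000000094.6, chr11:85699924-85729599, plus strand) lay in a K27R region of 147.6 kb (chr11:85670601-85818200), from which 14.5% remained in K27M and 13.8% in EZHIP. The K27M peak over its start spanned 21.4 kb (chr11:85694001-85715400) and the EZHIP peak 18.2 kb (chr11:85699201-85717400). The peaks were shifted against each other: the K27M peak began at -5.92 kb from the start site and the EZHIP peak at -0.72 kb, while EZHIP reached 17.48 kb into the gene and K27M 15.48 kb. Each touched 6 of 10 exons, and both held the only 2 islands of the region. An EZHIP peak of 2.2 kb past the end of the gene had no K27M counterpart.

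**Figure D3:**
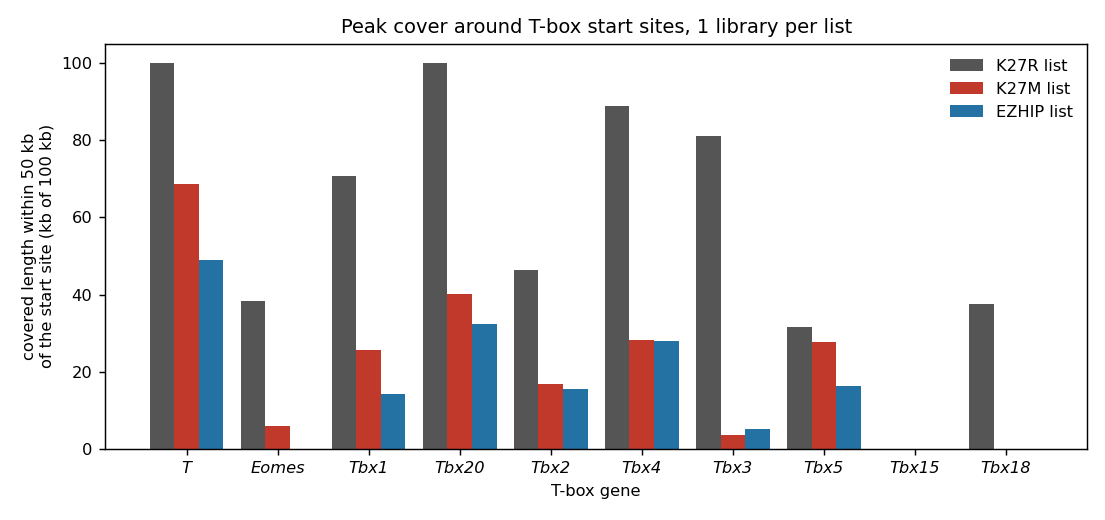
Length covered by peaks within 50 kb on each side of the start site (vertical axis, kb out of a window of 100 kb) for each T-box gene and list, 1 library per bar. T and Tbx20 are covered in full in K27R, T keeps the most in both inhibitor lists (68.6 and 49.0 kb), Eomes has no EZHIP bar, and Tbx15 has none at all.

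The 4 members outside K27R peaks differed in what lay around them. A start site outside K27R peaks lay in a gap of under 100 kb between K27R regions for 19.3% of 15615 such genes, and for 2 of these 4 members, Tbx3 and Tbx5. The median gap was 281 kb over those genes, with quartiles of 126 and 677 kb. A K27R peak reached into the gene body for 8.54% of such genes and for 1 of the 4 members, Tbx5.

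Tbx3, a repressor with roles in limb, mammary gland and the conduction system, had the tightest gap. The gene (ENSMUSG00000018604.11, chr5:120120678-120134733, plus strand) is 14.1 kb long and lay in a gap of 18.8 kb. On the upstream side a K27R region of 468.2 kb (chr5:119650401-120118600), without an island or a coding start site, stopped 2.08 kb before the start site. On the downstream side a region of 128.2 kb (chr5:120137401-120265600) began 2.67 kb past the end of the gene. None of its 9 exons and none of the 3 islands in the gap were in a peak. Tbx3 had 81.2 kb of K27R cover within 50 kb of the start site, more than 3 of the 6 members whose start site was in a peak, and 0 kb in its gene body.

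Tbx5, which specifies the forelimb and the heart, is the neighbour of Tbx3, and the 128.2 kb region fills most of the space between them. The gene (ENSMUSG00000018263.8, chr5:120284672-120335227, plus strand) lay in a gap of 68.4 kb, which opened 19.07 kb before the start site and closed 1.23 kb before the end of the gene. Only the last of its 9 exons was under K27R, from a region of 231.0 kb (chr5:120334001-120565000), and no exon was under a residual peak. The share of the region between Tbx3 and Tbx5 that was kept lay within the range of the regions over member start sites, with 42.6 kb in 3 K27M peaks (33.2%) and 36.2 kb in 6 EZHIP peaks (28.2%), of which 30.6 kb were in both.

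The widest of these was a K27M peak of 37.2 kb (chr5:120225201-120262400), which lay between -59.47 and -22.27 kb from the Tbx5 start site. Over its span the EZHIP list had peaks of 9.4 and 16.2 kb, and the latter held all 3 islands of the region, as did the K27M peak. No protein-coding start site lay in this region in the annotation used, so that its 3 islands lay under residual peaks without a coding start site. The other residual peaks of the region held no island. The 468.2 kb region upstream of Tbx3, without an island, kept 1.6 kb in K27M (0.342%) and 1.4 kb in EZHIP (0.299%), with none shared. The 231.0 kb region at the 3′ end of Tbx5 kept 11.8 kb in K27M (5.11%) and 15.8 kb in EZHIP (6.84%). Its 1 island lay under no residual peak, so the residue around these genes did not follow islands throughout.

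Tbx15 and Tbx18 act in skeletal and dermal mesenchyme, and Tbx18 also in the epicardium and ureter. Neither had a residual peak within 100 kb. Tbx15 (ENSMUSG00000027868.5, chr3:99044304-99158182, plus strand) lay in a gap of 264.8 kb, and the nearest K27R peak was 102.9 kb from the start site. The nearest residual peaks were 1348.5 kb away in K27M and 1245.1 kb away in EZHIP. Tbx18 (ENSMUSG00000032419.7, chr9:87597635-87626095, minus strand) differed in having a K27R region of 37.6 kb (chr9:87635601-87673200) whose edge lay 9.51 kb upstream of the start site. That region held no island, no coding start site and no residual peak, and the nearest K27M and EZHIP peaks were 582.5 and 583.5 kb from the start site. Tbx18 had an island of 1564 bp just inside the gene and another of 926 bp upstream of it, both in the gap.

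Cover was next compared between the inhibitor lists over the members. Within 50 kb of the start site, K27M cover exceeded EZHIP cover at 7 members and EZHIP cover exceeded K27M cover at 1, Tbx3, with 5.2 against 3.6 kb. Tbx15 and Tbx18 had none in either. The background among 6628 protein-coding genes with cover in either list was 58.7% with more K27M and 39.6% with more EZHIP. At Tbx4 and Tbx2 the excess was small, with 28.28 against 28.08 kb and 16.85 against 15.6 kb. The windows of these neighbours share peaks, so the 7 members are not separate cases. The Tbx2 window took in the edge of the K27M peak of Tbx4, which began 47.95 kb past the Tbx2 start site. Within its own K27R region Tbx2 had more EZHIP cover, 15.6 kb against 14.8 kb in K27M. At Tbx5 it was 27.73 against 16.2 kb and at Tbx1 25.6 against 14.2 kb. After peaks up to 10000 bp apart were joined, Tbx5 moved to 27.73 against 23.33 kb and Tbx3 to 3.6 against 12.2 kb, while Tbx1 was unchanged.

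The median K27R, K27M and EZHIP cover of the 10 members within 50 kb was 58.5, 21.2 and 14.9 kb, where the medians over all protein-coding genes were 14.8, 0 and 0 kb. Among genes with a start site in K27R, the 6 members had medians of 79.8, 26.9 and 21.8 kb, against 71.6, 1.47 and 1.2 kb. Among the 2897 genes that also had an island at the start site, these medians were 68.0, 6.4 and 5.0 kb. In K27M 5 of the 6 members had more cover than the upper quartile of all marked genes, 12 kb, and in EZHIP the same 5 had more than 9.26 kb. Eomes did not, with K27M cover of 6.0 kb and no EZHIP cover. The upper quartiles of the marked genes with an island at the start site were higher, 18.6 kb in K27M and 14.2 kb in EZHIP. Tbx2, with 16.85 kb, stayed below the former, and Tbx1, with 14.2 kb, did not exceed the latter. The share of the K27R region still covered had a median of 25.7% in K27M (range 14.5 to 71.2%) and 16.5% in EZHIP (range 0 to 75%). Over the marked genes the medians were 3.62% and 2.73%, and over those with an island at the start site 10.1% and 6.72%. The upper quartiles of the genes with an island, 28.5% and 19.8%, lay above the member medians. The K27R regions of the 6 members had a median width of 124 kb, within the quartiles of 39.6 and 223 kb over the marked genes, whose median was 96.8 kb.

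**Figure D4:**
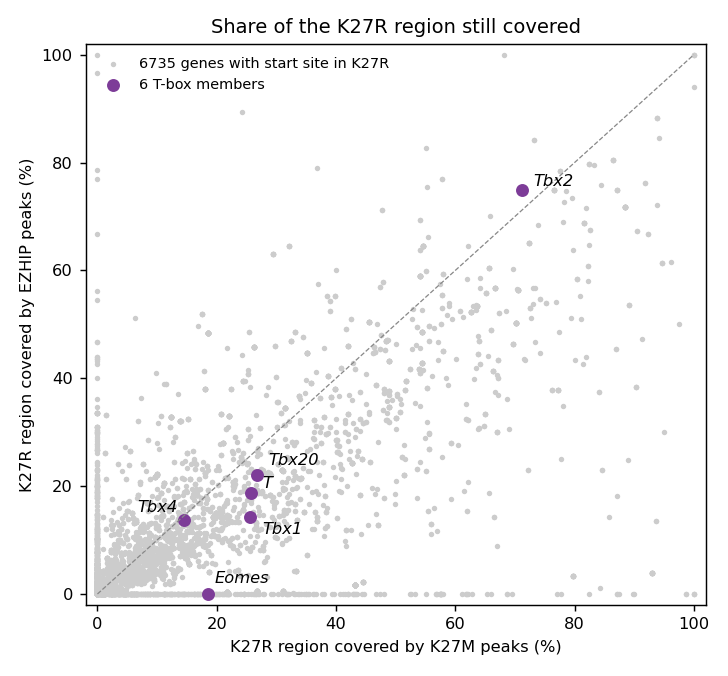
Percentage of the K27R region over the start site that K27M peaks (horizontal axis) and EZHIP peaks (vertical axis) still cover, for 6 T-box members (purple) and for the 6735 genes with a start site in K27R (grey); the dashed line marks equal shares. Tbx2 stands apart at 71.2 and 75%, Eomes lies on the horizontal axis at 18.5%, and the other 4 lie between 14.5 and 26.8% in K27M.

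The profile around the start site showed where the residue lay. In the 2 kb after the start site, the 6 members were covered over 100% in K27R, 100% in K27M and 83.3% in EZHIP, where all 6735 marked genes had 97.8, 29.5 and 25.9%. In the step from 20 to 22 kb past the start site, the members had 56.7, 33.3 and 28.3%, against 66.5, 8.59 and 6.61% over the marked genes. In the mirror step, from -22 to -20 kb, K27M and EZHIP cover was 13.3 and 16.7%, against 8.49 and 6.81% over the marked genes. Farther out the order of the sides turned, with 33.3% in both residual lists from -46 to -44 kb and 0% in both from 44 to 46 kb. The upstream cover there came from T and Tbx4, and at Tbx4 the peaks were those over the Tbx2 start site. With 6 genes, single peaks shape these profiles, and no side was favoured throughout.

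**Figure D5:**
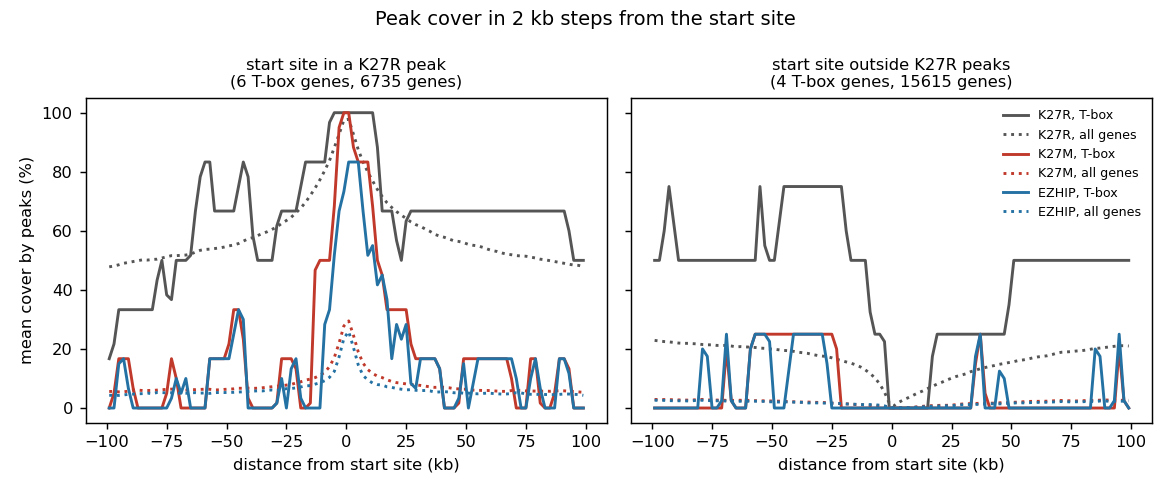
Mean share of each 2 kb step covered by peaks (vertical axis, percent) against distance from the start site along the gene in kb, for T-box members (solid lines) and all protein-coding genes (dotted lines) with the start site inside (left) or outside (right) a K27R peak. On the left K27M and EZHIP cover of the members peaks at the start site at 100% and 83.3%; on the right the members have no cover at the start site, and K27R cover rises on both sides.

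Residual peaks in these K27R regions were also read by island. The regions over the 6 start sites held 27 islands, of which 22 lay under a K27M peak and 21 under an EZHIP peak. Over the 6172 islands of all K27R regions the shares were 48.3% and 40.6%. The Tbx1 and Tbx2 regions held 8 of the 27 islands each. There 1 peak per list held 5 islands at Tbx1 in both lists, and 7 in K27M and 8 in EZHIP at Tbx2. The islands are thus not separate cases. Of the 12 K27M peaks in the regions of the members, 9 held an island, with a median width of 14.8 kb, and 3 did not, with 7.0 kb. Of the 19 EZHIP peaks 8 held an island, with a median of 14.9 kb, and 11 did not, with 4.0 kb. At T lay all 3 of the K27M peaks without an island and 8 of the 11 such EZHIP peaks. The K27M peaks over member start sites had a median of 23.5 kb (range 6.0 to 53.8 kb, 6 peaks). Over 2015 genes the median was 11.8 kb, with quartiles of 6.2 and 27.7 kb. The EZHIP peaks over member start sites had a median of 15.6 kb (range 14.2 to 22.8 kb, 5 peaks). Over 1728 genes it was 8.4 kb, with quartiles of 5.0 and 15.6 kb. These widths rest on how each list was split. When peaks up to 5000 bp apart were joined, which left the K27M peaks as they were, the EZHIP peak over the start site went from 15.6 to 49.2 kb at T and from 22.8 to 35.2 kb at Tbx20, and the other 3 did not change.

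The mouse has 7 further T-box genes, which were looked up as well. The start sites of 4 of them lay in K27R peaks: Tbr1, a regulator of cortical neurons, Tbx21 (T-bet), which directs T helper cells, Tbx19, which acts in pituitary corticotrophs, and Tbx22 on chromosome X. K27M peaks held 2 of these start sites (Tbr1 and Tbx21) and EZHIP peaks 1 (Tbx21). Over protein-coding genes 30.1% had a start site in K27R, and of those 29.9% had it in K27M and 25.6% in EZHIP. The EZHIP count thus lay at the background, and 4 genes are too few to read retention from. At Tbr1 a K27M peak of 7.0 kb lay over the start site and an EZHIP peak of 3.2 kb began 1.41 kb inside the gene. At Tbx21 the peaks over the start site spanned 13.2 kb in K27M and 6.6 kb in EZHIP. Starts of later transcripts differed from the gene start at Tbr1, where 3 of 4 lay in the EZHIP peak, and at Tbx22, where 4 of 5 lay in a K27M peak. Tbx22 had that K27M peak of 4.8 kb inside the gene and no EZHIP peak, and Tbx19, with no island in its K27R region of 59.6 kb, had neither. The start sites of Tbx6, Tbx10 and Mga lay outside every list. A residual peak lay over or inside the gene only at Tbr1, Tbx21 and Tbx22, and at each of them K27M cover was the larger. More K27M cover was also found within 50 kb at 58.7% of protein-coding genes with cover in either list.

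Neighbouring genes were counted to see whether residual peaks reached other promoters. Within 100 kb of the member gene bodies, 11 further protein-coding genes had a start site, and 5 of these lay in the K27R region of the member. None lay in the residual peak of a member in either list. Prr18, Pde10a and Dpy19l2 lay in residual peaks of their own in both lists, and Gp1bb and Sept5 in none. The K27R regions of T, Tbx20 and Tbx1 thus held other genes, while each residual peak over a member start site held that coding start site alone.

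For each member with K27R cover, the gene outside the family with the most similar cover was taken by the distance between 3 values, the covered kb within 50 kb of the start site in each list. The closest to T was 4930572O03Rik (100, 66.8 and 47.72 kb in K27R, K27M and EZHIP, a distance of 2.21 kb). The closest to Tbx1 was Gm17455 (69.07, 24.67 and 13.27 kb, distance 2.1 kb), to Tbx2 Rabl5 (47.38, 18.0 and 14.6 kb, distance 1.9 kb) and to Tbx4 Arhgef7 (91.1, 29.0 and 28.0 kb, distance 2.41 kb). Gm10024 was closest to Tbx20, Sdc3 to Eomes, Parm1 to Tbx3 and Cabp7 to Tbx5, at distances of 2.33, 0.4, 1.47 and 2.58 kb. For Tbx18 5 genes tied at a distance of 0 kb, with 37.6 kb in K27R and none in the residual lists.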

How the data were processed

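H3K27me3 ChIP-Seq peak lists of 3 libraries (K27R, K27M and EZHIP, 1 library per group) were analysed, with groups taken from the sample titles. Per the study's methods and the submitters' processing notes, the authors aligned reads with Bowtie 1.0.0 to mm9 and to a second species for scaling, and called broad peaks with MOSAiCS-HMM. Whether the scaling entered the calls is not stated. The study's methods give a gap setting of 10000 for these calls, but peaks closer than 10000 bp remained in each list. The deposited lists hold positions without scores, heights or counts, so that no test, interval or depth could be computed and no stricter score applied.

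Every peak was taken as whole bins of 200 bp, and positions are printed from 1. The NCBIM37 (mm9) sequence and GENCODE vM1 were used without conversion. A start site is the 5′ end of the gene record, and covered kb is the length of peaks inside a window. CpG islands were segments of over 200 bp, scored 17 for each base that opens a CG and -1 for each other base, with a G+C share of 50% or more and a CG count above 0.6 of that expected from base composition. This gave 23503 islands, repeats not masked. The score of the G of a CG is open to choice, and leaving it without a penalty gave 26798. RefSeq promoter sequences (GRCm38.p6) were placed in mm9 by exact match. Interval and island code was tested on simulated data. Python 3.11.15, numpy 2.4.6, pandas 2.3.3, numba 0.67.0 and matplotlib 3.10.9 were used.

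The members, gene lists and tests were chosen with earlier results of these data known. All members and the other T-box genes are named. Coding neighbours within 100 kb were to be named only where they shared the residual peak of a member or kept a peak that the member lost. None did, and the neighbours and non-coding genes named in the text were chosen after their values were seen. The most similar genes were taken by the distance given in the text, leaving out genes within 1 Mb of a member. Alternatives were joining peaks up to 10000 bp apart, minimum widths of 2000 and 5000 bp, other windows and start sites, and other island limits. The scoring of the G and joining up to 5000 bp were added after seeing the data. Markers looked up by symbol were found for 4 of 5 neuronal and 4 of 5 blood genes.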

Additional observations from a re-analysis of the deposited data

How the results depend on the processing

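Of 94 values recomputed under the alternatives, 75 stayed within 1.5 times the value reported. The number of members with a start site in a peak did so in every list under each alternative run, with 7 in K27R when a peak within 5000 bp counted, which added Tbx3. Some of this stability was fixed in advance. Every peak over a member start site was at least 6.0 kb wide, so the minimum widths could not change these counts, and joining could only add to them. The values that moved did so mostly by construction, with a smaller or larger window. With 10 kb on each side in place of 50 kb, the median K27R, K27M and EZHIP cover was 18.7, 10.0 and 5.36 kb, and with 100 kb it was 118 kb in K27R and 22.6 kb in EZHIP. Gene bodies summed over the members had 114 kb of cover in K27R and 68.5 kb in K27M, and 183 and 107 kb when 5000 bp were added on each side. Islands of at least 500 bp in the K27R regions numbered 14, of which 10 lay under K27M peaks and 10 under EZHIP peaks. With 50% of an island required under the peak, 20 in place of 21 islands counted in EZHIP. Joining peaks up to 10000 bp apart lowered the median share of the K27R region still covered. It went from 25.7 to 22.1% in K27M and from 16.5 to 14.8% in EZHIP. In alternatives chosen after seeing the data, joining peaks up to 5000 bp apart moved the widest EZHIP peak over a start site from 22.8 to 49.2 kb. Leaving the G of a CG without a penalty gave 28 islands in the regions, 22 under K27M and 20 under EZHIP. Under that scoring 8 members still had an island at the start site, as did 53.4% of genes. Start sites with an island in K27R were in K27M peaks for 52.1% and in EZHIP peaks for 44.1%, and islands of all K27R regions lay under them for 45.4% and 38.4%.

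The comparison between the inhibitor lists was the least stable. The member with more EZHIP cover, Tbx3, left 0 such members when only peaks of at least 2000 bp or of at least 5000 bp were used, and 0 in the 10 kb window, where 4 members had no residual cover and 1 had equal cover. Over gene bodies Tbx4 was the member with more EZHIP cover, 3 members had more K27M cover, 2 had equal cover and 4 had none in either list. Depth is unknown, so that a called absence such as Eomes in EZHIP could not be set against sensitivity. No paired analysis was possible because each group had 1 library.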

Other observations

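Non-coding genes near the members shared some of their residual peaks. At Tbx2 the antisense lincRNA 2610027K06Rik starts at -0.33 kb from the Tbx2 start site, and its start site lay in the Tbx2 peak of all 3 lists. At Tbx1 the antisense transcript 4930588K23Rik starts at -3.97 kb and likewise lay in the peak of Tbx1 in all 3 lists. At T the antisense lincRNA Gm16702 lay in a residual peak separate from that of T in both inhibitor lists, and the start of T2 lay in the K27R region only. At Tbx3 the antisense transcript Gm2301 starts inside the gene, in the gap without peaks, and runs upstream into the K27R region, while Gm16063 and Gm16064 start in that region and in no residual peak.

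RefSeq start sites were placed for Tbx1, Tbx4, Tbx18, Tbx20, T and Eomes. At Tbx1 they lay at -0.88 and -2.65 kb from the GENCODE start, and at Tbx4 at 10.34 kb. The bases in which CG dinucleotides were counted at Tbx1 thus lay downstream of both RefSeq start sites. Each of these placed start sites had the same presence or absence in the 3 lists as the GENCODE start.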
